A study of Mus musculus with 16 samples.

Results

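The genes described here were 10 NRF2 target genes, taken by symbol from the 57010 genes of a liver RNA-seq table: Gclc, Gclm, Slc7a11, Gsr, Srxn1, G6pdx, Pgd, Nqo1, Ephx1 and Osgin1. Each symbol matched 1 row. The table held 16 livers of wild-type male C57BL/6J mice, with 4 mice in each of 4 groups. The methods give their age as 8 to 12 weeks. A figure legend of the paper puts the mice at 8 weeks when the diet of 3 months began. The stated age is therefore not that at tissue collection, which is not given. Control mice are listed with neither agent. Cd-treated mice were injected intraperitoneally with CdCl2 at 1.25 mg/kg each day over the closing 7 days. Mice of the Se group ate a diet with selenomethionine (SeMet) at 2 ppm for 3 months. Mice of the Cd+Se group received both. What the control and Se mice were injected with is not given in the sources used here. The groups address what Cd does to the liver and whether dietary Se alters it.

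NRF2, encoded by Nfe2l2, is a transcription factor that the adaptor protein KEAP1 marks for degradation under resting conditions. Electrophiles and oxidants modify KEAP1, and NRF2 then accumulates, pairs with small MAF proteins and binds antioxidant response elements near its targets. In the liver these targets supply glutathione, NADPH, peroxide repair and conjugating enzymes. Cd binds thiols and depletes glutathione, and selenocysteine is the catalytic residue of selenoenzymes that work beside the same systems.

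TPM, a transcript abundance unit, scale each gene by its length and each library to the same total, so levels may be compared between genes. Of the 10 genes, 9 had a mean of at least 1 TPM and were tested with limma on log2(TPM + 1) among 11766 genes, with adjusted p under 0.05 as the threshold. Slc7a11 was below that level and was compared by an exact permutation test. Differences on this scale understate the change of genes of a few TPM, such as Nqo1 and G6pdx. In bulk tissue, fewer cells of a type and less RNA per cell cannot be told apart. The mice bear separate numbers, so the spread is that between mice.

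Some libraries stood apart. Cd mouse 5 had the lowest value of all 16 mice in 47.7% of the genes tested, and mitochondrially encoded transcripts made up 22.2% of its TPM, against 16.4% to 17.3% in control mice. Se mouse 40 had the highest value in 28.1% of the genes. The hepatocyte markers were all present, with a summed level of 45218 to 117198 TPM. Mt1 and Mt2, metallothionein genes that respond to Cd, separated the mice given Cd from the others as labelled. Neutrophil markers summed to 6.67 to 16.9 TPM in control mice, against 33.0 to 41.9 TPM in Cd mice, with Ly6g, Mpo and Elane under 0.5 TPM in every mouse. Kupffer cell and macrophage markers summed to 184 to 226 TPM in control mice, against 99.6 to 137 TPM in Cd mice, where 7 of the 10 fell and 1 rose. In the same comparison 3 of 10 hepatocyte markers fell (median log2 fold change -0.37) and 3 of 6 endothelial markers fell (median -0.45). These counts are to be read beside all 11766 genes tested, of which 2934 fell and 685 rose. In Cd+Se mice neutrophil markers summed to 46.5 to 77.3 TPM, and Kupffer cell and macrophage markers to 153 to 186 TPM. Between Cd+Se and Cd, 0 of 4 neutrophil markers tested were called, beside 15.9% of all genes. Higher in Cd+Se were 3 of 10 Kupffer cell and macrophage, 2 of 10 hepatocyte and 1 of 6 endothelial markers, beside 1600 of the 11766 genes. The part of these markers in the results was not tested. The median log2 fold change of all genes tested in Cd against control was -0.17, and centring each library on its own median moved it to 0.05.

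**Figure D1:**
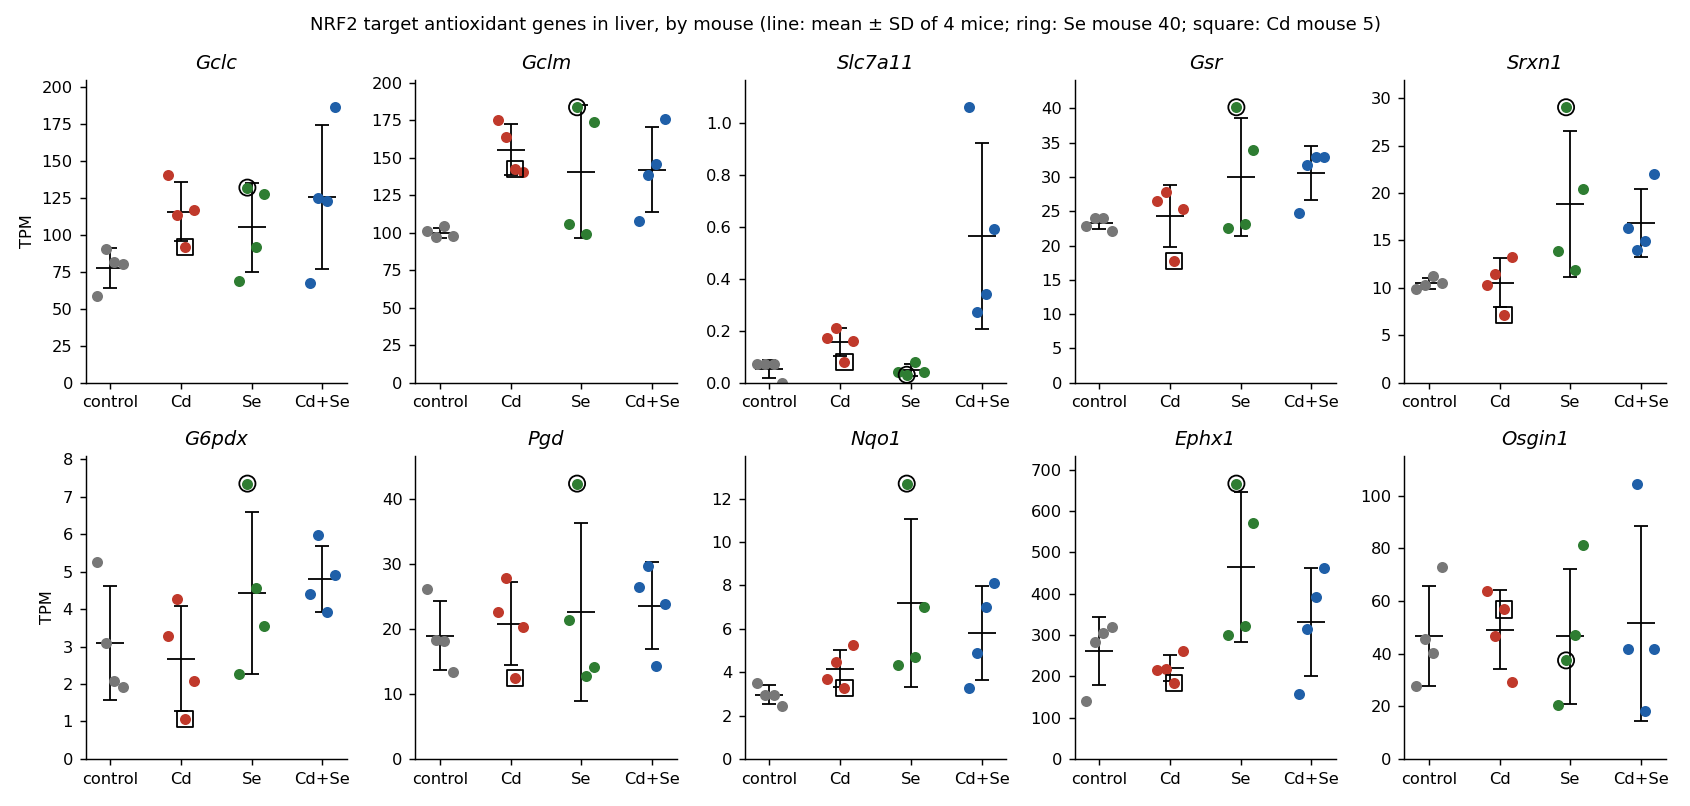
Levels of the 10 genes (TPM, linear axis from 0) in each mouse of the control, Cd, Se and Cd+Se groups. Each point is 1 mouse, the bars give the mean ± SD of 4 mice, the ring marks Se mouse 40 and the square Cd mouse 5. Gclm of the 4 Cd mice lies wholly above that of the 4 control mice, and Se mouse 40 is highest of all 16 in 7 of the 10 genes.

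The core of the antioxidant response element, TGACNNNGC (GCNNNGTCA on the other strand), was searched on both strands in RefSeq promoters of GRCm38.p6, which run from 250 bases before to 50 bases after each start. A promoter was held for 8 of the 10 genes, and 4 of them had a match: Gclm, G6pdx, Srxn1 and Pgd. Of all 32851 promoters in that table, 12.4% had one. In Srxn1 and Pgd the match began 29 and 4 bases after the RefSeq start of that promoter. The windows of Gclm and G6pdx are shown because their match lies before the RefSeq start and because Gclm was the member called in Cd against control. Each is 30 bases, read 5′ to 3′ on the strand of the gene, with the match in capitals. The Gclm window is chr3:122245413-122245442 (plus strand) and the G6pdx window chrX:74428918-74428947 (minus strand), both in GRCm38.p6. The gene positions used below place G6pdx at chrX:74409483-74429194. Its window therefore lies inside the gene, after the start given there.
Gclm: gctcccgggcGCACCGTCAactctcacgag
G6pdx: aggcgggtcaGCTCAGTCAaagcacacgcc
A match of letters is a description and not a bound site, and no binding was measured here.

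In Cd-treated livers, Gclm was the member that rose. Its product is the modifier subunit of glutamate-cysteine ligase, which makes the first and limiting step of glutathione synthesis. Gclm (ENSMUSG00000028124, chr3:122245557-122270732 in GRCm38, the build of all gene positions here) stood at 101, 97.0, 104 and 97.6 TPM in control mice 27 to 30. In Cd mice 1, 2, 5 and 6 it stood at 175, 164, 142 and 140.2 TPM. All 4 Cd mice therefore lay above all 4 control mice, including mouse 5, and the control mice were within a few TPM of each other. Mean levels were 155 ± 17.1 TPM (SD, n = 4) under Cd and 99.98 ± 3.40 TPM without it, a ratio of 1.55. The log2 fold change was 0.63 (standard error, SE, 0.19, 95% confidence interval 0.23 to 1.03, limma adjusted p = 0.0205). With each mouse left out in turn it stayed between 0.57 and 0.67, and with no filter on low genes the limma adjusted p was 0.0519.

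Gclc (chr9:77754535-77794485), the catalytic subunit of the same enzyme, also separated the groups. It was 58.6, 90.1, 81.4 and 79.96 TPM in control mice, against 141, 113, 91.9 and 117 TPM in Cd mice, so that the lowest Cd mouse was just above the highest control mouse. The log2 fold change was 0.57 (SE 0.26 and limma adjusted p = 0.110), short of the threshold. It passed when each library was centred on its median (0.79, limma adjusted p = 0.0181) and when only these 2 groups were in the model (limma adjusted p = 0.0255).

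Slc7a11 (chr3:49892526-50443614) encodes the transporter that brings in cystine in exchange for glutamate, the supply line of cysteine for glutathione. It was barely present in control livers, at 0.07, 0.07 and 0.07 TPM in mice 27 to 29 and listed at 0 in mouse 30. Cd mice had 0.17, 0.21, 0.08 and 0.16 TPM. The groups did not overlap (two-sided exact permutation test, p = 0.0286, the smallest that 4 mice against 4 allow), but the highest Cd mouse was still at 0.21 TPM. Of all genes tested, 6.44% also lay wholly higher in Cd than in control. A limma fit without the filter gave Slc7a11 an adjusted p of 0.533 in Cd against control, and 0.0149 for Cd averaged over both diets.

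The other members did not follow. Gsr (chr8:33652523-33698163), the reductase that regenerates glutathione, was 22.9, 24.03, 24.05 and 22.2 TPM in control mice, against 26.6, 27.8, 17.8 and 25.4 TPM in Cd mice. Srxn1 (chr2:152105516-152111376), which repairs over-oxidised peroxiredoxins, was 10.5 ± 0.576 TPM in control mice, against 10.6 ± 2.58 TPM in Cd mice. In both genes Cd mouse 5 was the lowest of all 16, and the other 3 Cd mice lay above every control mouse in Gsr and within or above the control range in Srxn1. Nqo1 (chr8:107388225-107403206), the quinone reductase often used as a reporter of NRF2, was 2.46 to 3.51 TPM in control mice, against 3.27 to 5.24 TPM in Cd mice, with a log2 fold change of 0.37 (SE 0.27 and limma adjusted p = 0.310). Ephx1 (chr1:180976210-181020904), the microsomal epoxide hydrolase, ranged from 141 to 319 TPM in control mice, against from 183 to 262 TPM in Cd mice.

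The NADPH-producing enzymes of the pentose phosphate pathway, G6pdx (chrX:74409483-74429194) and Pgd (chr4:149149991-149166771), and the growth regulator Osgin1 (chr8:119434124-119446256) overlapped between these groups. G6pdx was 1.93 to 5.25 TPM in control mice, against 1.07 to 4.28 TPM in Cd mice. Its near-copy G6pd2 was listed at 0 in all mice but 1, and whether reads were divided between them was not tested. Pgd was 13.4 to 26.1 TPM and 12.5 to 27.9 TPM, and Osgin1 27.7 to 72.8 TPM and 29.2 to 63.8 TPM. The log2 fold changes of Gsr, Srxn1, G6pdx, Ephx1, Pgd and Osgin1 lay between -0.19 and 0.11, and those of Srxn1, G6pdx and Ephx1 changed sign when libraries were centred on their medians. Their limma adjusted p-values were at least 0.690.

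In all, 1 of the 9 members tested was called in Cd against control, a share of 11.1% beside 30.8% of all genes tested. Counting rises only, it was 1 of 9 beside 5.82% of all genes. After centring on library medians the rises were 2 of 9, beside 2260 of the 11766 genes. Groups did not overlap, with Cd above control, in 2 of the 9 (22.2%) beside 6.44% of all genes tested, and 0 members lay wholly below, beside 27.8% of all genes. The median log2 fold change of the 9 was 0.10, beside -0.17 over all genes, and 0.32 beside 0.05 after centring on library medians, where 4 of the 9 had an unadjusted limma p under 0.05 beside 5249 of the 11766 genes. Without Cd mouse 5 the median was 0.18, beside -0.09 over all genes, and Gclm was again the member called (log2 fold change 0.67, limma adjusted p = 0.0331).

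**Figure D2:**
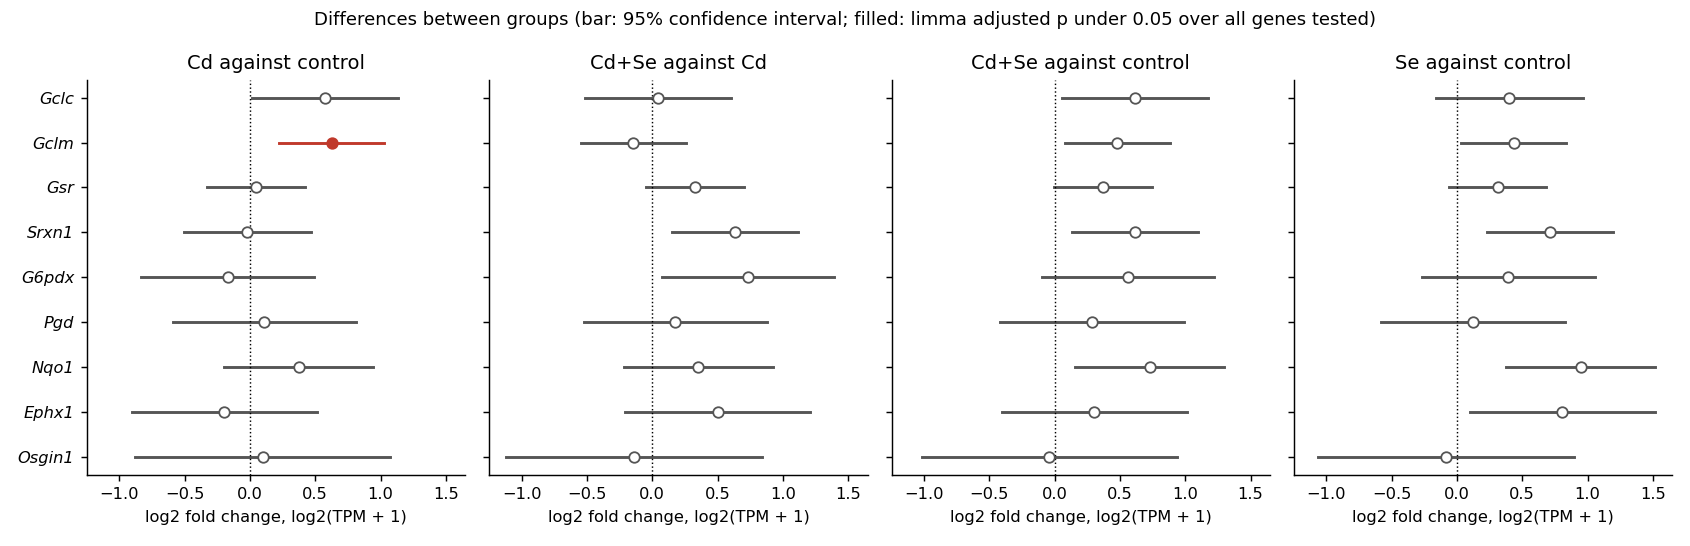
Log2 fold changes on the log2(TPM + 1) scale for the 9 members tested, in 4 comparisons of groups, each named above its panel. Points are limma estimates, bars their 95% confidence intervals, and filled points passed an adjusted p of 0.05 over all genes tested. Gclm in Cd against control, at 0.63, is the filled point.

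In livers given both agents, none of the 9 members tested with limma was called against Cd alone. The cystine transporter gene Slc7a11 was higher by the exact permutation test, which is not adjusted over genes. The 2 tests are therefore not alike. In a limma fit without the filter Slc7a11 was not called either (adjusted p = 0.0502). Srxn1 was 16.27, 14, 14.92 and 22 TPM in Cd+Se mice 13 to 16, against 10.33, 11.47, 7.15 and 13.28 TPM in Cd mice. The highest Cd mouse, at 13.28 TPM, stayed below the lowest Cd+Se mouse. The log2 fold change was 0.63 (SE 0.23, 95% confidence interval 0.15 to 1.12, limma adjusted p = 0.0682). This passed the threshold when Se mouse 40, which is in neither group but adds to the shared spread, was left out (limma adjusted p = 0.0307). Without Cd mouse 5 the log2 fold change was 0.47 (limma adjusted p = 0.213).

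G6pdx was 4.39, 5.99, 3.93 and 4.92 TPM in Cd+Se mice, with 1 Cd mouse, at 4.28 TPM, inside that range. Its log2 fold change against Cd was 0.73 (SE 0.31 and limma adjusted p = 0.115), and 0.48 without Cd mouse 5. Gsr was 24.8, 31.8, 32.9 and 32.9 TPM, with mouse 13 low and the other 3 above every Cd mouse, and its log2 fold change was 0.33 (limma adjusted p = 0.208). The 3 genes serve peroxide repair, NADPH supply and glutathione recycling.

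The glutathione synthesis genes had smaller differences between Cd and Cd+Se. Gclm was 107, 138, 146 and 176 TPM in Cd+Se mice, a log2 fold change of -0.15 against Cd with a 95% confidence interval of -0.55 to 0.25 (limma adjusted p = 0.625). Gclc was 67.1, 125, 123 and 186 TPM, a log2 fold change of 0.04 with an interval of -0.52 to 0.60. These intervals allow changes of either sign. In both genes Cd+Se mouse 13 was the lowest of its group, near the control levels, and mouse 16 the highest.

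Slc7a11 separated these groups. It was 1.06, 0.27, 0.34 and 0.59 TPM in Cd+Se mice, and each of these values was above the 0.21 TPM of the highest Cd mouse. The difference of means was 0.41 TPM (two-sided exact permutation test, p = 0.0286, the smallest possible). Of all genes tested, 16.1% also lay wholly higher in Cd+Se than in Cd. The exact permutation test gave p = 0.0286 after quantile normalization and p = 0.314 when each library's log2 values were centred on the library median. The unfiltered limma fit gave an adjusted p of 0.0502, so Slc7a11 was not called there. Mouse 13, which was lowest in Gclc, Gclm, Gsr, Nqo1 and Ephx1 within its group, was the highest in Slc7a11.

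Nqo1 was 3.25, 4.88, 7 and 8.10 TPM and Ephx1 158, 315, 393 and 463 TPM in Cd+Se mice, a wide range in which mouse 13 was again lowest and mouse 16 highest. Their log2 fold changes against Cd were 0.35 and 0.50 (limma adjusted p = 0.380 and 0.313). Osgin1 had its widest range here, from 18.1 to 105 TPM, and Pgd ran from 14.3 to 29.8 TPM.

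Between Cd+Se and Cd, 0 of the 9 members passed limma's adjusted threshold, beside 15.9% of all genes, and 2 of 9 (22.2%, Srxn1 and G6pdx) had an unadjusted p under 0.05, beside 33.1% of all genes. The Cd+Se mice lay wholly above the Cd mice in 1 of 9 tested members (11.1%) beside 16.1% of all genes. The median log2 fold change of the 9 was 0.33, beside 0.17 over all genes, and 0.13 beside -0.02 after centring on library medians. Without Cd mouse 5 these medians were 0.19 and 0.09.

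Against the control group, Cd+Se livers had log2 fold changes above 0 in 8 of the 9 members, with a median of 0.48 beside -0.02 over all genes. The largest was that of Nqo1, 0.73 (SE 0.27), followed by Gclc (0.62), Srxn1 (0.61) and G6pdx (0.56). None of the 9 passed limma's adjusted threshold (lowest adjusted p = 0.315), beside 0.484% of all genes. At an unadjusted p under 0.05 there were 4 of 9 (44.4%), namely Nqo1, Gclc, Gclm and Srxn1, beside 10.9% of all genes. Gclm, Srxn1 and Gsr lay wholly above the control mice, 3 of 9 tested members (33.3%) beside 3.88% of all genes, and so did Slc7a11. This comparison shares the Cd+Se mice with the preceding one and the control mice with those of Cd and of Se alone.

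Se mice had the widest spread of the 4 groups in the median member. Nqo1 was 4.32, 12.7, 4.72 and 7.02 TPM in Se mice 39, 40, 41 and 44, all above the 3.51 TPM of the highest control mouse. Its mean was 7.19 ± 3.86 TPM (SD, n = 4) against 2.97 ± 0.429 TPM in control mice, a ratio of 2.42. The log2 fold change was 0.95 (SE 0.27, 95% confidence interval 0.37 to 1.52), with an unadjusted limma p of 0.00291 and an adjusted p of 0.959. Without mouse 40 it was 0.66 (SE 0.23, unadjusted p = 0.0114 and adjusted p = 1 by limma).

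Srxn1 was also highest in mouse 40 and next in mouse 44, at 13.9, 29.1, 11.9 and 20.5 TPM, again wholly above the control mice, whose highest was 11.3 TPM. Its log2 fold change was 0.71 (SE 0.23), and 0.49 without mouse 40. Ephx1 was 299.6, 666, 321 and 571 TPM, with 2 mice near the highest control mouse and 2 well above, and its log2 fold change was 0.81 (SE 0.34). Gclm was 106, 184, 99.2 and 174 TPM, the same split into mice 39 and 41 near the controls and mice 40 and 44 above them. Gclc was 68.5, 132, 91.6 and 128 TPM and Gsr 22.6, 40.2, 23.2 and 33.96 TPM, with mice 40 and 44 again higher.

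This split did not extend to every member. Slc7a11 was 0.04, 0.03, 0.08 and 0.04 TPM in Se mice, overlapping the control mice (two-sided exact permutation test, p = 1), and mouse 40 was the lowest of the 4. Osgin1 was 20.3, 37.5, 47.0 and 81.4 TPM, with mouse 44 highest and mouse 40 below mice 41 and 44. G6pdx and Pgd were highest in mouse 40, at 7.35 and 42.4 TPM, while mouse 44 had 3.56 and 14.2 TPM.

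In Se against control, 0 of the 9 members passed limma's adjusted threshold, beside 0% of all genes. At an unadjusted p under 0.05 there were 4 of 9 (44.4%), namely Nqo1, Srxn1, Ephx1 and Gclm, beside 3.86% of all genes, and 2 of 9 without mouse 40. Nqo1 and Srxn1 did not overlap with the control mice, 2 of 9 (22.2%) beside 1.29% of all genes. The median log2 fold change of the 9 was 0.40, beside 0.01 over all genes, and 0.28 beside -0.05 without mouse 40. The members share these mice, so their counts are not separate observations.

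With Se in the diet, none of the 9 members passed the test between mice with and without Cd. In Cd+Se against Se, 0 of 9 passed limma's adjusted threshold, beside 0.714% of all genes, and 0 of 9 had an unadjusted p under 0.05, beside 10.9%. Log2 fold changes ran from -0.50 for Ephx1 to 0.21 for Gclc, with a 95% confidence interval of -1.21 to 0.21 for Ephx1. For Gclm the value was 0.05, with an interval of -0.35 to 0.45. Slc7a11 was higher, with all Cd+Se mice above the 0.08 TPM of the highest Se mouse (two-sided exact permutation test, p = 0.0286, the smallest possible). The share of all genes that lay wholly higher was not counted for this comparison. A limma fit without the filter gave Slc7a11 an adjusted p of 0.0559, so it was not called there.

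Averaged over both diets, Cd gave Gclm a log2 fold change of 0.34 (SE 0.13 and limma adjusted p = 0.0744) and Gclc one of 0.39 (limma adjusted p = 0.132). Of the 9 members, 0 passed the adjusted threshold beside 25.1% of all genes, and 1 of 9, Gclm, had an unadjusted p under 0.05 beside 38.4%. The difference between the Cd effect with Se and without Se was tested as the interaction. For Gclm it was -0.58 (SE 0.27 and limma adjusted p = 0.225). In the interaction 0 of 9 members were called beside 1.04% of all genes, and 1 of 9 had an unadjusted p under 0.05 beside 21.3%.

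**Figure D3:**
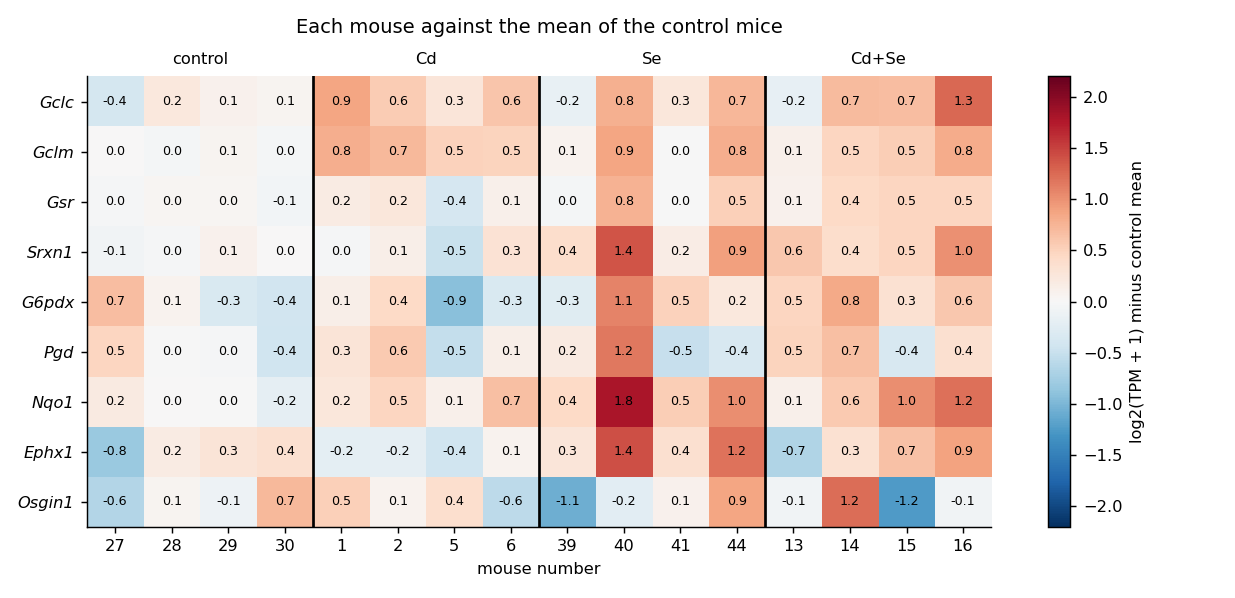
Log2(TPM + 1) of the 9 members tested in each of the 16 mice, minus the mean of the control mice. Rows are genes, columns are mice by group, and the printed figures are the differences. Within the Se group mice 40 and 44 stand above mice 39 and 41 in Gclc, Gclm, Gsr, Srxn1, Nqo1 and Ephx1, and within the Cd+Se group mouse 13 is lowest in Gclc, Gclm, Gsr, Nqo1 and Ephx1.

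Mice of 1 group thus differed in several members at once. Se mouse 40 was the highest of all 16 in 7 of the 10 genes (Nqo1, Gclm, Srxn1, Gsr, G6pdx, Pgd and Ephx1). The median deviation of the 9 members from the Se group mean was 0.61 in mouse 40 and 0.22 in mouse 44, on the log2 scale, and -0.52 and -0.41 in mice 39 and 41. The median over all genes was 0.17, 0.02, -0.11 and -0.08 in the same mice. After centring on library medians the members' medians were 0.42, 0.19, -0.40 and -0.32. In Cd+Se mouse 13 the median deviation was -0.28 and in mouse 16 it was 0.33, beside -0.02 and 0.02 over all genes.

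The SD of log2(TPM + 1) between mice had a median over the 9 members of 0.26 in control, 0.28 in Cd, 0.57 in Se and 0.44 in Cd+Se mice. Over all genes tested it was 0.15, 0.25, 0.22 and 0.21. Gclm was the steadiest member in control mice, with an SD of 0.05, and Osgin1 the most variable member in control, Se and Cd+Se mice. Alb, the albumin gene a hepatocyte marker named here after its values were seen, was also highest in Se mouse 40, at 86650 TPM, and lowest in Cd mouse 5, at 22135 TPM. Its part in the spread was not tested.

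Correlations of the deviations from the group means, over the 16 mice, describe which members moved together. The closest pair was Gclc with Ephx1 (Pearson r = 0.89), followed by Gclm with Gsr (0.86), Nqo1 with Gsr (0.83) and Srxn1 with Gsr (0.82). G6pdx and Pgd, consecutive suppliers of NADPH, had an r of 0.71 with each other, and 0.02 and -0.02 with Ephx1. Osgin1 stood alone, with values from -0.19 to 0.31 with the other 8. The median over the 36 pairs was 0.54, beside 0.30 for members with all other genes, and 0.28 beside -0.02 after centring on library medians. Without Se mouse 40 the medians were 0.32 and 0.24 as deposited. Values of 1 library share its scaling, and these are descriptions.

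The 5 other genes closest to the mean z-score of the 9 members over the 16 mice were Grina (Pearson r = 0.94), Slc7a7 (0.92), Prpsap1 (0.92), Ugdh (0.92) and Ftl1 (0.91). Their Spearman rho values ran from 0.85 to 0.91. Ugdh makes the UDP-glucuronic acid used in conjugation, and Ftl1 is the ferritin light chain. Ugdh ran from 71.6 to 259.8 TPM and Ftl1 from 3003 to 6676 TPM, and all 5 genes were highest in Se mouse 40.

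The regulators of the pathway were measured in the same livers. Nfe2l2 itself was 37.5 to 45.0 TPM in control mice, against 39.7 to 64.1 TPM in Cd mice, a log2 fold change of 0.29 (limma adjusted p = 0.276). Keap1 had a log2 fold change of -0.18 (limma adjusted p = 0.333), and Bach1, a repressor that competes for the same elements, one of -0.01 (limma adjusted p = 0.983). Among the 14 regulators tested, 3 rose and 3 fell in Cd against control, 42.9% called beside 30.8% of all genes. Those that rose were the small MAF partners Maff (log2 fold change 0.98, limma adjusted p = 0.0473) and Mafk (0.57, limma adjusted p = 0.0348), and Syvn1, a ubiquitin ligase of the endoplasmic reticulum (0.70, limma adjusted p = 0.0437). The genes that fell were Dpp3, a peptidase that binds KEAP1 (-0.69), Cul3, the scaffold of the KEAP1 ubiquitin ligase (-0.54), and Btrc, which recruits NRF2 to another ubiquitin ligase (-0.43).

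**Figure D4:**
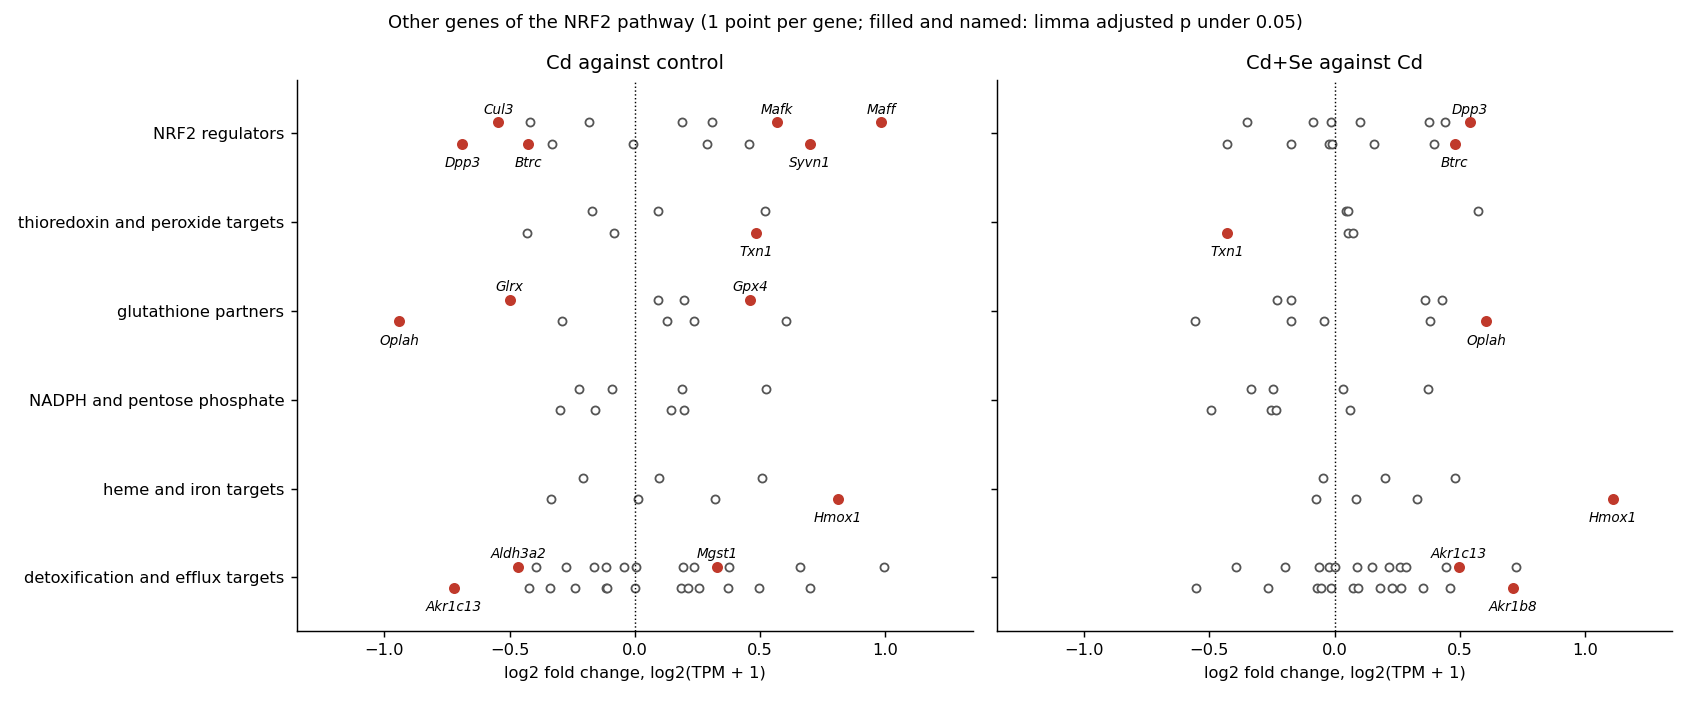
Log2 fold changes of 70 other NRF2 pathway genes on the log2(TPM + 1) scale, by role, in Cd against control and in Cd+Se against Cd. Each point is 1 gene, and those with a limma adjusted p under 0.05 are filled and named. In Cd against control 7 genes rose and 7 fell, and in Cd+Se against Cd 6 were higher and 1 was lower in Cd+Se.

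Over 6 lists of other NRF2 pathway genes, 70 of 75 genes were tested, and 7 rose and 7 fell in Cd against control. The 14 called are to be read beside the 30.8% of all genes that were called. The rises outside the regulators were 1 gene in each of 4 lists: Txn1, thioredoxin (log2 fold change 0.49), Gpx4, the selenoenzyme that reduces lipid hydroperoxides (0.46), Hmox1, heme oxygenase (0.81), and Mgst1, a membrane glutathione transferase (0.33). Oplah, which recycles oxoproline to glutamate, fell by 0.94, and the glutaredoxin Glrx fell by 0.50. In the detoxification list Akr1c13 fell by 0.72 and Aldh3a2 by 0.46. The 8 genes of the NADPH list gave 0 calls by limma and 1 at an unadjusted p under 0.05. The median log2 fold change of the 70 genes was 0.09. The number called was 6 without control mouse 29, 9 without control mouse 30 and 8 without Cd mouse 2. Of the 11766 genes, 2588, 3070 and 3314 were called in the same fits, against 3619 with every mouse. Of the 70, 22 were called after quantile normalization and 31 after centring on library medians, beside 3986 and 4064 of all genes. With a mouse left out the number ran from 6 to 19.

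In Cd+Se relative to Cd, 7 of the 70 genes were called, beside 15.9% of all genes. Hmox1 was higher in Cd+Se by a log2 fold change of 1.11 (SE 0.25 and limma adjusted p = 0.0122), at 54.0, 26.3, 59.7 and 29.9 TPM against 15.9 to 19.6 TPM in Cd mice. Oplah (0.61), Dpp3 (0.54), Akr1c13 (0.50) and Btrc (0.48) were higher in Cd+Se, and Txn1 was lower (-0.43). These 5 also differed in Cd against control in the other direction, and both comparisons use the same 4 Cd mice. Akr1b8, an aldo-keto reductase, was 2.29 ± 0.613 TPM in Cd and 4.63 ± 1.99 TPM in Cd+Se mice (0.71, limma adjusted p = 0.0448). With only these 2 groups in the model 0 of the 70 were called by limma, beside 66 of the 11766 genes. The number was 3 without Cd mouse 5 and 3 without Cd+Se mouse 14, and 4 without Cd+Se mouse 16. Over all genes 767, 712 and 1325 were called in the same fits, against 1876 with every mouse. Quantile normalization gave 11 of the 70 and centring on library medians 14, beside 2078 and 2209 of all genes.

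Against mice without Cd, Hmox1 was also the gene of the 70 that was called in Cd+Se, with log2 fold changes of 1.92 against control and 1.91 against Se. This 1 of 70 stood beside 0.484% of all genes against control and 0.714% against Se. With only the groups compared 0 of the 70 were called against Se, beside 11 of the 11766 genes. In the average over both diets 6 of the 70 rose and 8 fell, beside 25.1% of all genes called. Those called there but not in Cd against control were Sesn2, a stress-induced regulator of peroxide repair (0.62), and the canalicular transporter Abcc2 (0.32), which rose, and Nfe2l1 (-0.36), Ces2g (-0.38) and Gsta3 (-0.34), which fell. In Se against control 0 of the 70 were called by limma, beside 0% of all genes, and 10 (14.3%) had an unadjusted p under 0.05, beside 3.86%. The median of the 26 detoxification genes in that comparison was 0.44, with 23 of 26 above 0, beside 0.01 over all genes. Se mouse 40 was the highest of all 16 mice in 14 of these 26 genes and in 27 of the 70 genes, beside 28.1% of all genes tested. The most uneven of them was Gstm3, a glutathione transferase named after its values were seen, at 593 TPM in mouse 40 and 27.02 to 74.96 TPM in the other 3 Se mice.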

How the data were processed

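Poly(A)-selected liver RNA was sequenced on Illumina NovaSeq. The authors deposited 1 table of TPM values for 57010 genes and 16 mice. The submitters' processing notes name fastp, HISAT2, StringTie and the build GRCh38, a human build name, while the table lists mouse Ensembl identifiers. Sequencing depth cannot be read from TPM and is unknown here, and precision rests on 4 mice a group. Titles name rep1 and rep2 for each mouse, while the table holds 1 column per mouse. Whether these are 2 runs or 2 read files is not stated.

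Log2(TPM + 1) was compared with limma 3.58.1 in R 4.3.3: 1 model of 4 group means, eBayes with a trend, 11766 genes averaging 1 TPM or more, Benjamini-Hochberg adjustment and a threshold of 0.05. The steps were tested on simulated data. Slc7a11 was compared by a two-sided exact permutation test of mean TPM. Genes were named as members, as called genes of 6 written pathway lists (up to 4 a list), as 3 regulators, or by correlation with the members' mean z-score; Cul3, Btrc, Nfe2l1, Mgst1, Abcc2, Gsta3, Gstm3 and Alb were added after their values were seen. Members and lists were chosen with earlier results of these data known. Positions are from GENCODE M21 (GRCm38), promoters from RefSeq (GRCm38.p6). Alternatives were a pseudocount of 0.1, no filter, a mean of at least 5 TPM, quantile normalization, centring on library medians, no trend, a log2 fold change of at least 0.5, only the groups compared, and each mouse left out.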

Additional observations from a re-analysis of the deposited data

Results flagged for a closer look

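Within groups of 4 mice, a value was marked where its gap to the nearest mouse exceeded Dixon's limit. This held in 3 of 60 groups, the number that chance gives at 1 in 20. Gsr in the Cd+Se group had a gap of 0.865 of the range, with mouse 13 at 24.8 TPM and the others at 31.8 to 32.9 TPM. Slc7a11 in the control group had a gap of 1, with mouse 30 listed at 0 and the others at 0.07 TPM. Nfe2l2 in the Se group had a gap of 0.907, with mouse 40 at 58.9 TPM and the others at 36.4 to 38.5 TPM.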

How the results depend on the processing

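Each choice was changed alone, and no cause of a shift was tested. Of the 9 target genes tested, 1 was called in Cd against control (Gclm), with a range of 1 to 1 over the fits that leave out 1 mouse. It was 0 with no filter on low genes, where more genes are adjusted for (Gclm limma adjusted p = 0.0519), and 2 after centring on library medians or with only the groups compared, where Gclc joined it. Averaged over both diets the count of 0 became 1 with no filter (Slc7a11, which then enters as the tenth gene), 1 after quantile normalization and 2 after centring, and 0 to 2 with a mouse left out (2 without Cd+Se mouse 13, 1 without Se mouse 40 or 44). In Cd+Se against Cd it was 0 to 1, with 1 (Srxn1) without Se mouse 40, and in the interaction 1 after centring.

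Of the other 70 pathway genes, the 14 called in Cd against control became 5 with no filter, 22 after quantile normalization, 31 after centring, 8 with a log2 fold change of at least 0.5, 22 with only the groups compared, and 6 to 19 with a mouse left out. In Cd+Se against Cd the 7 became 11, 14, 4 and 0 under quantile normalization, centring, that fold limit and only the groups compared, and 3 to 9. In Cd+Se against Se the 1 became 0 with only the groups compared, and 1 to 2. The average over diets gave 22 after centring and 7 with the fold limit. Cd+Se against control gave 1 to 4 (4 without Cd+Se mouse 15), and the interaction 1 after quantile normalization, 4 after centring and 0 to 1 (1 without Se mouse 40). For comparison, the 3619 calls over all 11766 genes in Cd against control became 3986 after quantile normalization and 4064 after centring. They were 2585 with the fold limit, 3568 with only the groups compared and 2588 to 3886 with a mouse left out. With no filter they were 3036 of 27943 genes.

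For Slc7a11, limma without the filter gave an adjusted p of 0.533 in Cd against control and 0.0502 in Cd+Se against Cd, 0.0559 in Cd+Se against Se, 0.0579 in Cd+Se against control and 0.0149 averaged over both diets, where it was called. Centring of log2 values gave an exact permutation p of 0.314 in Cd+Se against Cd. Dividing TPM by a factor from the library median, which was not planned beforehand, gave an exact permutation p of 0.0286. With a mouse left out the exact permutation p was 0.0571 to 0.0571, the smallest that 3 against 4 allow, which bears on the number of mice and not on the difference.

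Small log2 fold changes turned sign. In Cd against control, Srxn1 was 0.18 after quantile normalization, 0.20 after centring and -0.13 to 0.14 with a mouse left out, G6pdx 0.049 after centring and -0.37 to 0.077, Ephx1 0.025 after centring, Gsr -0.023 to 0.18, Osgin1 -0.12 to 0.34 and Pgd -0.041 to 0.33. In Cd+Se against Cd, Gclc was -0.15 after centring and -0.18 to 0.31, Pgd -0.017 after centring and -0.036 to 0.39, and Osgin1 -0.56 to 0.26. In Se against control, Osgin1 was -0.40 to 0.25 and Pgd -0.22 to 0.33. Of the single-gene values under alternatives, 664 kept their direction and side of the threshold, 25 turned sign, 3 newly passed and 1 no longer passed.

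Over all genes, calls moved by more than 1.5 times in Cd+Se against Cd (1876, against 1131 with no filter and 66 with only the groups compared), Cd+Se against Se (84, against 31 at a mean of 5 TPM and 11 with only the groups compared), Cd+Se against control (57, against 26, 18, 104 after quantile normalization and 101 after centring), the average (2959, against 979 with the fold limit) and the interaction (122, against 26 with no filter, 524 after quantile normalization and 731 after centring). With a mouse left out these counts were 712 to 2164, 28 to 193, 26 to 103, 2282 to 3135 and 2 to 348, in the same order. The split in Cd against control was 685 higher and 2934 lower as deposited, 1710 and 2276 after quantile normalization, and 2260 and 1804 after centring. No paired analysis was possible because mouse numbers are not shared between groups. Depth is unknown, so the counting error of low genes such as Slc7a11 cannot be given.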
